A study of Mus musculus with 3 samples.

Results

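Resident macrophages of the mouse heart were chosen by their own UMI counts, as barcodes (droplets called as cells) in which 3 or more of 7 genes were detected: F13a1, Mrc1, Cd163, Lyve1, Vsig4, Cbr2 and Adgre1. A barcode could hold at most 1 UMI (a counted molecule) over the MHC class II genes H2-Aa, H2-Ab1, H2-Eb1 and Cd74, and at most 1 UMI over Pdgfra, Cdh5, Muc16 and Abcc9, which mark fibroblasts, endothelium, mesothelium and mural cells. These limits were met by 2558 of 38646 barcodes. The libraries came from total cells of collagenase-digested hearts of male C57/B6J mice. There was 1 library of each genotype: WT, Myh6-R404Q, a point mutation in the cardiac myosin heavy chain gene, and Prkag2-p.R299Q, a point mutation in a regulatory subunit gene of AMP-activated protein kinase. No treatment is given in the labels, and neither the age nor the number of animals in a library is given in the sources used here.

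Resident macrophages of the heart lie between the muscle cells, take up dying cells and debris, and handle iron and haem. They are known for scavenger receptors such as CD163 and the mannose receptor, and for depending on signalling through the CSF1 receptor. Macrophages that carry MHC class II and the chemokine receptor CCR2 are, as background, the population most often traced to blood monocytes.

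The WT library held 1215 members with a median of 1664 UMIs each and 2462597 UMIs in all. The Myh6-R404Q library held 627 members with a median of 1985 UMIs and 1518002 UMIs in all. The Prkag2-p.R299Q library held 716 members with a median of 2394 UMIs and 1964751 UMIs in all. Mutant members were thus read more deeply than WT members. Levels are given as CPM, counts per 1e6, that is the UMIs of a gene over all UMIs summed over the members of a library. Both mutant libraries were set against the same WT library. Intervals are at 95% and cover counting error only, not the variation between animals, so no test between genotypes was made. Between 28 and 51 barcodes were shared by any 2 libraries, and 0 of them were members in both.

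Some members also carried genes of other cell types, which bears on every comparison that follows. Clustering the members gave 10 sub-clusters, described by their leading genes and not named as cell types. Sub-clusters 4 (249 cells), 5 (172), 6 (98), 8 (54) and 10 (27) were led by genes such as Ebf2 and Gpc6, Flt1 and Adgrl4, Rbm20 and Mhrt, Reln and Mmrn1, and Npr3 and Vwf. Scrublet, which calls droplets that look like 2 cells, called 91.2%, 87.2%, 95.9%, 64.8% and 92.6% of these. Sub-cluster 7 (60 cells) was led by muscle genes, with Myh6, Xirp2 and Ttn among them, and 15% of it was called. In sub-clusters 1 (889 cells), 2 (696) and 3 (280) the called share was 1.8%, 0% and 0%. In all, 303 of 1215 WT members, 139 of 627 Myh6-R404Q members and 118 of 716 Prkag2-p.R299Q members were called. Values without them stand beside some of the results only. Among the ratios to WT of genes named by size, 11 left their counting interval without the called members and 27 stayed inside it.

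**Figure D1:**
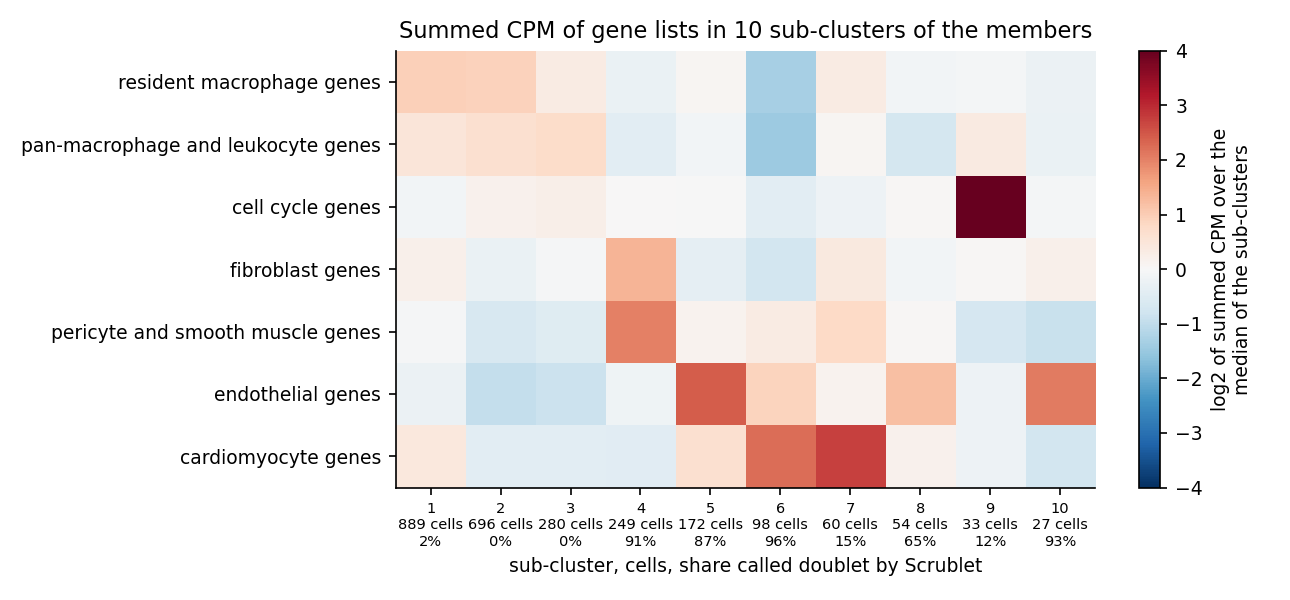
Summed CPM of 7 gene lists (rows) in the 10 sub-clusters of the members (columns), as log2 of the value over the median of the sub-clusters, with the cells in each sub-cluster and the share called a doublet by Scrublet. Endothelial genes were highest in sub-clusters 5 and 10, cardiomyocyte genes in 6 and 7, and cell cycle genes in 9.

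The genes that chose the members are a description and carry no test. F13a1, the catalytic chain of coagulation factor XIII, lies at chr13:36867178-37050244 on the minus strand and Cd163 at chr6:124304656-124330527 on the plus strand (mm10, GENCODE M21). F13a1 stood at 5524 CPM in WT, 3437 CPM in Myh6-R404Q and 5272 CPM in Prkag2-p.R299Q. Cd163, the receptor for haemoglobin bound to haptoglobin, stood at 667.6, 463.1 and 495.7 CPM in the same order. Lyve1, a hyaluronan receptor, stood at 201, 120.6 and 253.5 CPM. Thus F13a1, Cd163 and Lyve1 were each lowest in the Myh6-R404Q members, whereas Adgre1, an adhesion receptor of macrophages, was lowest in WT at 438.6 CPM, against 592.9 and 507.4 CPM. F13a1 was detected in 97.4%, 96.7% and 98.3% of members and Lyve1 in 30.7%, 22.0% and 41.8%. In barcodes with 2 or more Pdgfra UMIs and fewer than 3 of the 7 genes, called Pdgfra-gated here, F13a1 was detected in 12.1%, 7.19% and 7.74% at median depths of 2256, 2508 and 3109 UMIs.

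At the edge of the rule, 488 WT, 245 Myh6-R404Q and 188 Prkag2-p.R299Q members had exactly 3 of the 7 genes. Just outside, 623, 254 and 170 barcodes had 2 of them and met the other limits. Members with 1 MHC class II UMI numbered 200, 126 and 112, against 62, 63 and 55 barcodes excluded with exactly 2.

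Genes outside the rule also placed these barcodes with macrophages. The 20 leading genes were 11.1-fold or more above all other barcodes in each of the 3 libraries. They included Ms4a4a, Ms4a6d, Ms4a6b and Ms4a7, membrane proteins of the MS4A family, Tlr7, a sensor of single-stranded RNA, Msr1, a scavenger receptor, and C5ar1, the receptor for complement fragment C5a. Mctp1 stood at 2468, 2374 and 2656 CPM in members, against 170.1, 158.2 and 168.4 CPM in all other barcodes. Slc9a9, a sodium and proton exchanger of endosomes, stood at 2431, 2505 and 2972 CPM in members. Timd4, which binds phosphatidylserine on dying cells, stood at 73.1, 67.8 and 96.7 CPM in members and at 2.7, 0.3 and 0.6 CPM in Pdgfra-gated barcodes. It was detected in 12.2%, 13.1% and 20.2% of members, and in 7.40%, 7.95% and 9.98% once barcodes were thinned to 1000 UMIs.

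Genes of other blood cells were at low to moderate levels by list. The monocyte list summed to 743.5, 656.8 and 857.1 CPM in WT, Myh6-R404Q and Prkag2-p.R299Q members, against 426.5, 450.1 and 496.6 CPM in all other barcodes. The B cell list summed to 1216, 1142 and 1314 CPM, against 1540, 1526 and 1540 CPM in all other barcodes, and its member Bank1 is among the 20 leading genes. The dendritic cell list summed to 144.2, 156.1 and 115 CPM, the granulocyte list to 85.3, 67.8 and 59.0 CPM, the T and NK cell list to 13.4, 14.5 and 12.2 CPM and the mast cell list to 7.31, 18.4 and 12.2 CPM. Macrophages also express several genes of these lists, such as Fn1, Itga4, Cd44 and S100a6 of the monocyte list. Some defining markers had 0 UMIs in the members of all 3 libraries. Among these were Ly6c2 and Chil3, genes of monocytes, Xcr1, of dendritic cells, Nkg7, of NK cells, and Cma1, of mast cells. Others were detected: Zbtb46, of dendritic cells, and Csf3r, of granulocytes, each reached 50 CPM or more in at least 1 library. S100a8, of granulocytes, was detected in 4, 1 and 1 members. Cd79a, of B cells, was detected in 5, 4 and 0, and Cd3e, of T cells, in 2, 1 and 0. Ly6c2 was also undetected in Pdgfra-gated barcodes of WT and Myh6-R404Q, so its absence does not set members apart. Ccr2 had 47, 12 and 19 UMIs, which is 19.1, 7.9 and 9.7 CPM, against 9.1, 12.8 and 6.8 CPM in all other barcodes. Muscle RNA was abundant in contrast: Myh6 stood at 3635, 3348 and 2427 CPM in members, and at 3965, 3583 and 3608 CPM in Pdgfra-gated barcodes.

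**Figure D2:**
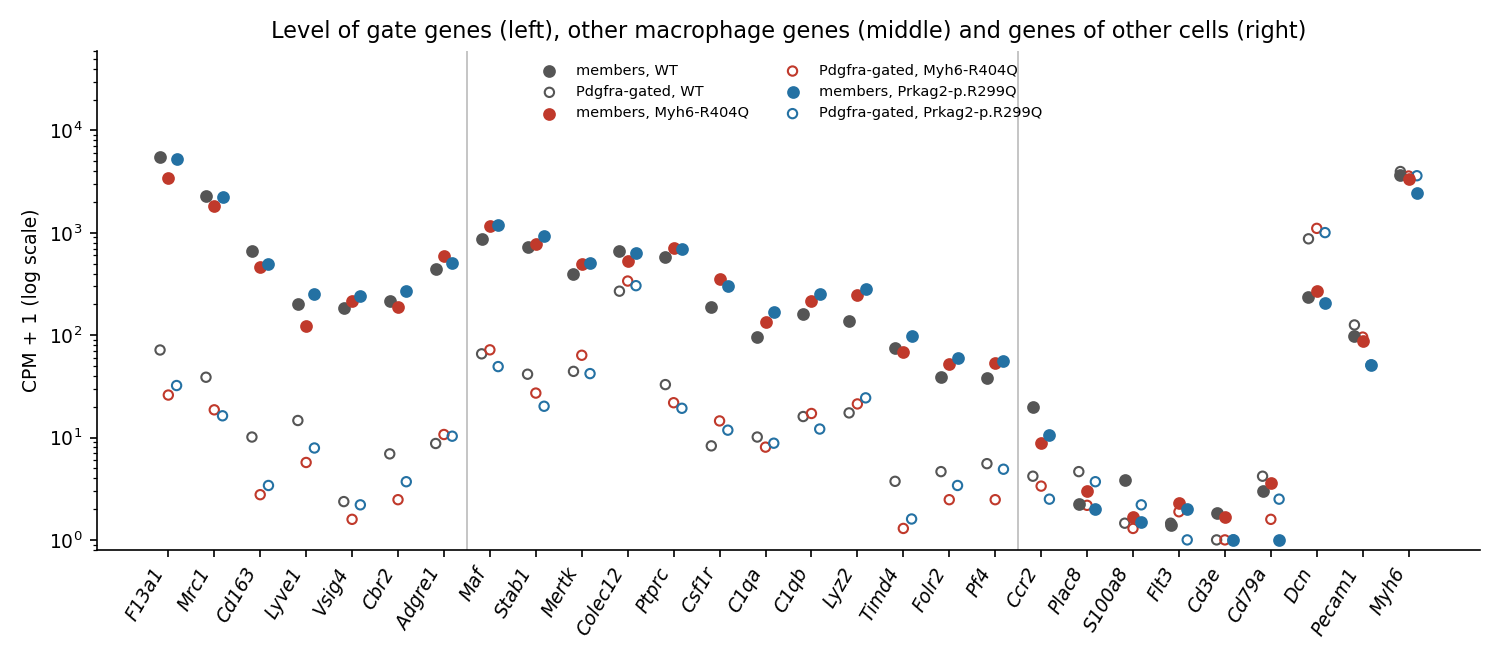
Level of each gene as CPM + 1 on a log axis, with filled points for resident macrophages and open points for Pdgfra-gated barcodes, coloured by library. The gate genes and the other macrophage genes were higher in members in all 3 libraries, and Myh6 was close to the Pdgfra-gated level.

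The first question was how large the population was in each genotype. Members made up 6.74% of WT barcodes (exact binomial interval 6.38 to 7.11%), 4.95% of Myh6-R404Q barcodes (4.58 to 5.34%) and 9.01% of Prkag2-p.R299Q barcodes (8.38 to 9.66%). Relative to WT the share was 0.735 times in Myh6-R404Q (0.669 to 0.807), whereas for Prkag2-p.R299Q it was 1.34 times (1.22 to 1.46). After thinning to 1000 UMIs the shares were 6.37%, 4.66% and 8.32%, and the ratios 0.732 and 1.31. The order of the libraries was therefore the same at matched depth, with 1 library behind each value. Without Scrublet-called barcodes the shares were 6.15%, 4.64% and 8.74%. The Prkag2-p.R299Q ratio moved with the number of genes asked for, from 1.09 with 2 or more to 1.65 with 4 or more.

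**Figure D3:**
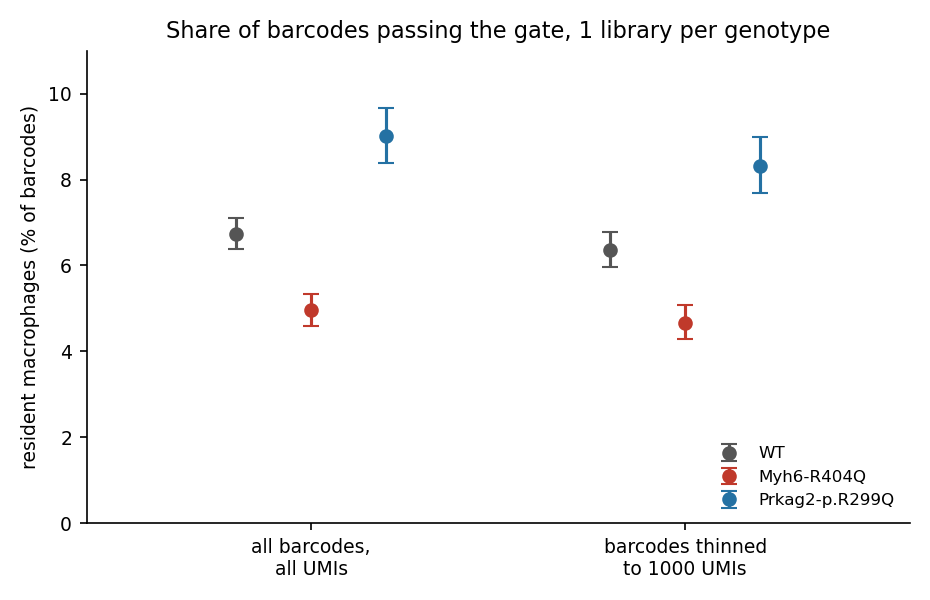
Resident macrophages as a percentage of barcodes in each library, from all UMIs and after thinning to 1000 UMIs, with exact binomial 95% intervals. Prkag2-p.R299Q was highest (9.01% and 8.32%) and Myh6-R404Q lowest (4.95% and 4.66%) both ways.

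Some barcodes met the rule except that they held 2 or more MHC class II UMIs, and these are called MHC class II-high macrophages. They numbered 142, 184 and 125 in the 3 libraries. Resident macrophages were 89.5% of the 2 classes together in WT (87.8 to 91.1%), 77.3% in Myh6-R404Q (74.3 to 80.2%) and 85.1% (82.6 to 87.5%) for Prkag2-p.R299Q. Thinned to 1000 UMIs, these were 96.2%, 89.0% and 94.3%. Myh6-R404Q stood lowest both ways, and deeper barcodes more often reach 2 UMIs, so the unthinned shares also move with depth.

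In Myh6-R404Q members, Diaph3, Kif23, Slc40a1 and Hpgd were among the genes higher than in WT, and Gda, Cd38, Clec4d and 7 of 14 chaperone genes were lower. The sub-cluster with most members differed between the WT library and the mutant ones. Sub-cluster 1 held 604 of the 1215 members from WT, 140 of the 627 from Myh6-R404Q, and 145 of the 716 from Prkag2-p.R299Q. Its leading genes included Ccl6, Ccl9, Cd38 and Gda, and the mitochondrial mt-Atp8 and mt-Nd4l. Its median depth was low in each library, at 1296, 1292 and 1329 UMIs, and WT was the shallowest library. Sub-cluster 2, with Timd4 and Hpgd further down its leading genes, held 148, 254 and 294 members. Clusters were made with no correction between libraries. Since the leading genes also shaped the clusters, the genotype values of Ccl6, Ccl9, Cd38, Gda and Hpgd and these cell numbers are not separate observations. Of 4748 genes with 50 CPM or more in either library, 37 were higher by 2-fold or more (0.779%) and 50 were lower (1.05%). At 1.5-fold or more the counts were 271 higher (5.71%) and 233 lower (4.91%), and with TMM scaling 210 and 290. Without the Scrublet-called members, 32 of the 37 and 45 of the 50 were still past 2-fold, and 0 were on the other side of WT.

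The 20 genes of the cell cycle list, with no filter on level, summed to 259.9 CPM in WT members, 654.8 CPM in Myh6-R404Q members and 430.1 CPM in Prkag2-p.R299Q members. In all other barcodes the sums were 198.6, 298 and 260.9 CPM. Diaph3, a formin that acts in cell division, had 37, 105 and 74 UMIs in WT, Myh6-R404Q and Prkag2-p.R299Q members, or 15.02, 69.2 and 37.7 CPM. Its ratios to WT were 4.60 (3.14 to 6.89) and 2.51 (1.67 to 3.83). Kif23, a kinesin of cytokinesis, had 60, 114 and 142 UMIs, or 24.4, 75.1 and 72.3 CPM. Its ratios to WT were 3.08 (2.24 to 4.29) and 2.97 (2.18 to 4.08). Both mutant libraries thus stood above WT for both genes. In all other barcodes Diaph3 stood at 2.52 and 1.73 times WT and Kif23 at 2.55 and 1.74 times. Both genes reached 50 CPM only in mutant libraries, so the number of cell cycle genes past a fold is not given.

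Counted by cell, 12 of 1215 WT members had 3 or more of 20 cell cycle genes detected (0.988%, 0.511 to 1.72%). In Myh6-R404Q these were 41 of 627 (6.54%, 4.73 to 8.77%) and in Prkag2-p.R299Q 32 of 716 (4.47%, 3.08 to 6.25%). Pdgfra-gated barcodes gave 1.04%, 3.02% and 2.97%. At 1000 UMIs per barcode the members gave 2 of 878 (0.228%), 14 of 516 (2.71%) and 6 of 591 (1.02%), while Pdgfra-gated barcodes gave 0 of 237, 1 of 270 and 0 of 154. The exact binomial intervals for members at this depth were 0.0276 to 0.820%, 1.49 to 4.51% and 0.373 to 2.20%. They rest on few cells of 1 library each, so they do not test a difference between genotypes.

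Among other genes higher in Myh6-R404Q members, Slc40a1, the iron exporter ferroportin, stood at 27.6 CPM in WT, 89.6 CPM in Myh6-R404Q and 27.0 CPM in Prkag2-p.R299Q. Its ratios to WT were 3.25 (2.41 to 4.41) and 0.977 (0.669 to 1.42), and in all other barcodes 1.67 and 0.917. Hpgd, which inactivates prostaglandins, stood at 73.1, 218.7 and 112 CPM, a ratio of 2.99 (2.49 to 3.61) in Myh6-R404Q. Cx3cr1, the fractalkine receptor, stood at 24.8, 62.6 and 38.7 CPM, and its ratio of 2.53 in Myh6-R404Q (1.81 to 3.54) was 3.99 without Scrublet-called members. In Pdgfra-gated barcodes Cx3cr1 stood at 20.04, 17.35 and 27.01 CPM, so the WT level was near that of cells that should lack it. The urea transporter gene Slc14a1 was 3.34-fold higher, against 3.12-fold in all other barcodes. Kctd16 (3.36-fold), Slc7a15 (3.02-fold) and Gpr34 (2.50-fold) completed this side with Vwf, an endothelial gene, whose ratio went from 2.55 to 1.62 without Scrublet-called members.

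On the lower side, Gda, guanine deaminase, had 1091, 208 and 615 UMIs in WT, Myh6-R404Q and Prkag2-p.R299Q members, or 443, 137 and 313 CPM. The ratio in Myh6-R404Q was 0.309 (0.265 to 0.359), against 0.445 in all other barcodes. Cd38, an enzyme that consumes NAD, stood at 138.5, 44.1 and 60.1 CPM. Its ratios to WT were 0.319 (0.242 to 0.415) and 0.434 (0.349 to 0.536). In all other barcodes Cd38 stood at 1.04 and 0.741 of WT. Clec4d, a C-type lectin receptor, stood at 58.5, 7.25 and 29.5 CPM, a ratio of 0.124 in Myh6-R404Q (0.0605 to 0.228). Myh11, Csmd1, Mmrn1, Nkain2, Sntg1 and Reln, at ratios of 0.104 to 0.274, were also named by size. Csmd1 is among the leading genes of sub-cluster 7, Myh11 of sub-cluster 4, and Reln and Mmrn1 of sub-cluster 8.

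Chaperone genes were lower in Myh6-R404Q members: 7 of 14 measured were lower by 1.5-fold or more, against 4.91% of all genes, and 0 were higher. The median log2 ratio was -0.57, against 0.03 over all genes measured. Hsph1, a co-chaperone of HSP70 proteins, stood at 90.6 CPM in WT, 21.1 CPM in Myh6-R404Q and 72.8 CPM in Prkag2-p.R299Q. It was under 50 CPM in Myh6-R404Q, so it entered that library's count through WT. Hsp90aa1, the inducible HSP90, stood at 125.1, 50.7 and 88.6 CPM. Without Scrublet-called members the list median was -0.82, and in all other barcodes it was -0.38. In Prkag2-p.R299Q, 2 of 14 were lower, against 7.31% of all genes, and the median was -0.36. As background, these genes also respond to the handling of tissue.

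In Prkag2-p.R299Q members, the C1q chains, Lyz2 and Csf1r were higher than in WT, and 6 of 14 cardiomyocyte and 6 of 7 endothelial genes were lower. Of 4664 genes measured, 11 were higher by 2-fold or more (0.236%) and 72 were lower (1.54%). At 1.5-fold these were 173 (3.71%) and 341 (7.31%). Set against Myh6-R404Q members instead, of 4676 genes 116 were higher by 1.5-fold (2.48%) and 198 lower (4.23%), 6.72% in all, with 16 (0.342%) and 33 (0.706%) past 2-fold. Without Scrublet-called members 9 of the 11 and 54 of the 72 were still past 2-fold, and 0 were on the other side of WT.

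Lyz2, lysozyme, had 339, 375 and 548 UMIs in WT, Myh6-R404Q and Prkag2-p.R299Q members, or 137.7, 247 and 278.9 CPM. Its ratio to WT was 2.03 in Prkag2-p.R299Q (1.77 to 2.33), against 1.23 in all other barcodes. Arsb, a sulfatase of the lysosome, stood at 89.3, 133.7 and 193.9 CPM, a ratio of 2.17 in Prkag2-p.R299Q (1.83 to 2.57). The receptor gene Gpr183 and the G protein gene Gna15 were higher by 2.04-fold and 2.09-fold, Gas2l3 by 2.40-fold and Slc7a15 by 2.32-fold. Fn1, fibronectin, had 81, 50 and 161 UMIs and a ratio of 2.49 in Prkag2-p.R299Q, which turned to 0.540 when barcodes were thinned to 1000 UMIs. Thinning changes both the depth and which barcodes are members, and the 2 were not separated. With 4 or more gate genes the Fn1 ratio was 6.96.

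Csf1r, the receptor on which resident macrophages depend, stood at 186.4 CPM in WT, 351.8 CPM in Myh6-R404Q and 303.3 CPM in Prkag2-p.R299Q. It was 1.89-fold (1.66 to 2.14) and 1.63-fold (1.44 to 1.84) higher than in WT, and 1.84-fold and 1.495-fold higher in all other barcodes. C1qa, a chain of complement C1q, stood at 94.6, 134.4 and 169 CPM, with ratios of 1.42 (1.17 to 1.72) and 1.79 (1.51 to 2.12). In all other barcodes C1qa stood at 0.884 and 0.967 of WT. Here and elsewhere, all other barcodes means every barcode that was not a member. They include the MHC class II-high macrophages and barcodes just outside the rule, so they are not free of macrophages. Of the pan-macrophage list, 4 of 20 measured genes were higher in Myh6-R404Q by 1.5-fold or more and 1 lower, against 5.71% and 4.91% of all genes. Cx3cr1 is 1 of the 4 and was under 50 CPM in WT, so it entered this count through Myh6-R404Q, where it was higher. In Prkag2-p.R299Q 6 of 19 were higher and 0 lower, against 3.71% and 7.31% of all genes. The 6 were Csf1r, C1qa, C1qb, C1qc, Lyz2 and Spi1. The list medians were 0.30 in both, against 0.03 over all genes measured.

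Genes of other cell types were among those lower in Prkag2-p.R299Q members. Of 14 cardiomyocyte genes 6 were lower by 1.5-fold or more, and of 7 endothelial genes 6 were lower, against 7.31% of all genes. In either list 0 were higher. The median log2 ratio in members was -0.57 for the cardiomyocyte list and -0.78 for the endothelial list. In all other barcodes it was -0.07 and -0.59, so the endothelial list was also lower outside the members. The member values of these lists include the Scrublet-called members, which were 303 of 1215 in WT and 118 of 716 in Prkag2-p.R299Q. The summed level of the cardiomyocyte list was 17590, 14710 and 10440 CPM in WT, Myh6-R404Q and Prkag2-p.R299Q members. For the endothelial list it was 1307, 1126 and 835.7 CPM, and for the pericyte and smooth muscle list 253, 109.4 and 97.2 CPM. Myh11, a smooth muscle myosin, had 156, 10 and 14 UMIs and a ratio of 0.113 in Prkag2-p.R299Q (0.0601 to 0.195), or 0.332 without Scrublet-called members. Gpam, Sned1, Podxl, Shank3, Hrc, Pdlim3, Sntg1, Csmd1 and Mmrn1 were the other genes named, at ratios of 0.174 to 0.411. RNA of other cells thus differed between the libraries' members, and its part in the genotype differences was not tested.

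**Figure D4:**
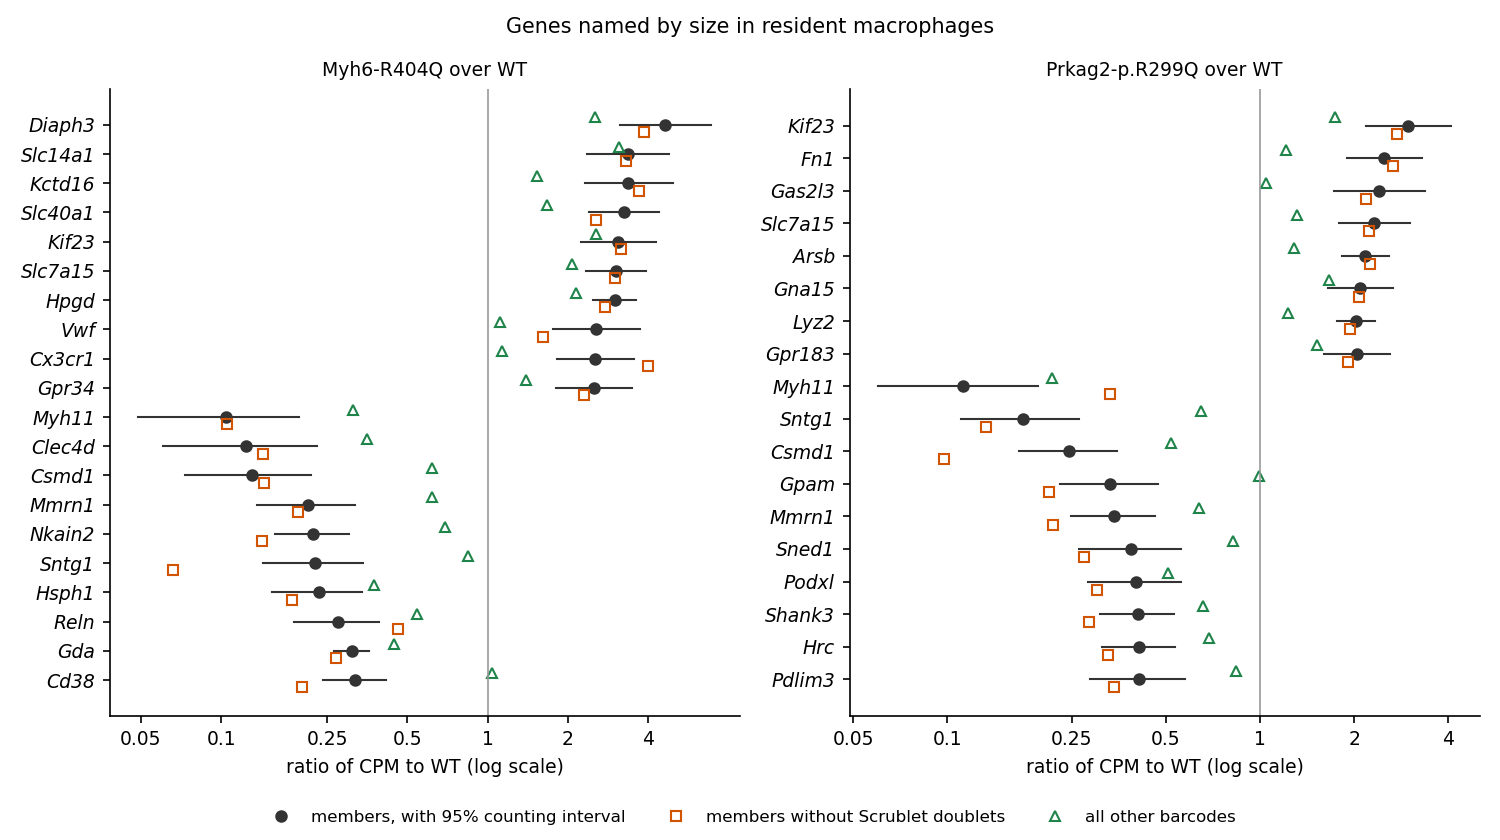
Ratio of CPM to WT on a log axis for the genes named by size, in Myh6-R404Q (left) and Prkag2-p.R299Q (right). Circles with lines are members with 95% counting intervals, squares are members without Scrublet-called droplets and triangles are all other barcodes. Cd38 was at 0.319 of WT in Myh6-R404Q members and at 1.04 in other barcodes.

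Of 6 cytokine and chemokine genes measured in Myh6-R404Q, 3 were lower by 1.5-fold or more (Ccl6, Ccl9 and Ccl12), against 4.91% of all genes, and Cxcl16 was higher. In Prkag2-p.R299Q the same 3 of 5 measured were lower, against 7.31% of all genes, and 0 were higher. Ccl6 and Ccl9 lead sub-cluster 1, which held more WT than mutant members. Ccl6 had 528, 123 and 221 UMIs in WT, Myh6-R404Q and Prkag2-p.R299Q members, or 214.4, 81.0 and 112.5 CPM. Its ratios to WT were 0.378 (0.308 to 0.461) and 0.525 (0.446 to 0.615), against 0.326 and 0.477 in all other barcodes. Ccl9 had ratios of 0.449 and 0.655, and Ccl12 of 0.415 and 0.562. Few genes of the cytokine list were measured (6 and 5), and its median changes sign with the processing.

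Among genes of energy metabolism in Prkag2-p.R299Q, 4 of 12 glycolysis and hypoxia genes were lower (Aldoa, Tpi1, Ldha and Vegfa), against 7.31% of all genes, and the median was -0.47, while 1 of 18 respiratory chain genes was lower with a median of -0.33. In Myh6-R404Q, 2 of 12 and 0 of 18 were lower, against 4.91% of all genes. Muscle is rich in these RNAs, and the cardiomyocyte list was lower in the same Prkag2-p.R299Q members, as given above; its part was not tested. Prkag2 itself stood at 333, 276 and 355.8 CPM, ratios of 0.829 (0.735 to 0.934) and 1.07 (0.965 to 1.18). A point mutation is not expected to show in 3-prime counts, so these values do not check the labels.

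Resident macrophages were then compared with the MHC class II-high macrophages of the same libraries, the one comparison with replicates. Summed UMIs of both classes in the 3 libraries were tested with edgeR, with the library as a block and the gate genes left out. The 3 libraries differ in genotype and stand in as replicates, so the test asks what held across them. Of 11080 genes, 63 were higher in resident macrophages (0.569%) and 115 lower (1.04%) at an adjusted p under 0.05. Both classes were split by MHC class II UMIs of the same cells, so genes that vary with MHC class II can be lower by that choice. MHC class II-high macrophages were also deeper, with median UMIs of 1929, 2143 and 2704. With DESeq2 the counts were 8 and 29, and with barcodes thinned to 1000 UMIs 14 and 6.

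Ccr2 differed most of the genes named, at 19.3, 7.96 and 9.76 CPM in resident macrophages and 225, 153 and 95 CPM in MHC class II-high macrophages, library by library. The edgeR log2 difference was -3.64 (SE 0.217, adjusted p = 1.53e-11), lower in 3 of 3 libraries. Ciita, the master regulator of MHC class II genes, differed by -2.56 (SE 0.173, edgeR adjusted p = 1.63e-10). Both stayed past the threshold in 9 of 9 alternatives, with adjusted p up to 0.000896 and 0.0013. H2-DMb1, which loads peptide onto MHC class II, differed by -2.23 (edgeR adjusted p = 4.22e-06), and Klra2, a lectin-like receptor, by -2.07 (edgeR adjusted p = 4.14e-06). Oprm1, Grk3, Dexi, Ipcef1, Cytip, Plbd1, Adgre4 and Trpm3 were also lower, by -1.83 to -1.15. Trpm3 passed in 4 of 9 alternatives, turned to 6.70 when barcodes were thinned to 1000 UMIs, and is a leading gene of sub-cluster 5, where 87.2% of cells were called doublets.

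Of 20 scavenger and uptake genes tested, 3 were higher in resident macrophages (Colec12, Stab1 and Timd4), against 0.569% of all genes. Axl was lower, against 1.04% of all genes, and the list median was -0.01. Colec12, a scavenger receptor with a collagen domain, stood at 673, 536 and 632 CPM against 291, 236 and 429 CPM, with no overlap between classes. The log2 difference was 0.96 (SE 0.107, edgeR adjusted p = 3.51e-06). Stab1, another scavenger receptor, differed by 0.45 (edgeR adjusted p = 0.0017), and Timd4 by 0.81 (edgeR adjusted p = 0.0432), which passed in 3 of 9 alternatives. Ltc4s, which makes leukotriene C4, differed by 1.45 (edgeR adjusted p = 0.00347), and Rgs7bp by 1.59 (edgeR adjusted p = 0.0008). Dnm1, Naaladl2, Mylk4, Ednrb, Plekhg5, Ctla2b, Cacna1a and Mylk were the others named, at 0.92 to 1.47. Mylk, a kinase of smooth muscle, passed in 1 of 9 alternatives.

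By list, 4 of 19 further resident macrophage genes were higher (Colec12, Stab1, Ltc4s and Timd4) and 0 lower, with a median of 0.45. Over all genes tested 0.569% were higher and 1.04% lower. Of 11 MHC class II presentation genes outside the gate, 4 were lower (Ciita, H2-DMb1, Cd83 and Ctss) and 0 higher. Of 14 cardiomyocyte genes and 9 endothelial genes 0 passed either way. Csf1r at -0.20 (edgeR adjusted p = 0.503), Folr2 at 0.51 (edgeR adjusted p = 0.504), Igf1 at 0.33 (edgeR adjusted p = 0.226), Cx3cr1 at -0.73 (edgeR adjusted p = 0.123) and C1qa at 0.15 (edgeR adjusted p = 0.865) did not pass.

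**Figure D5:**
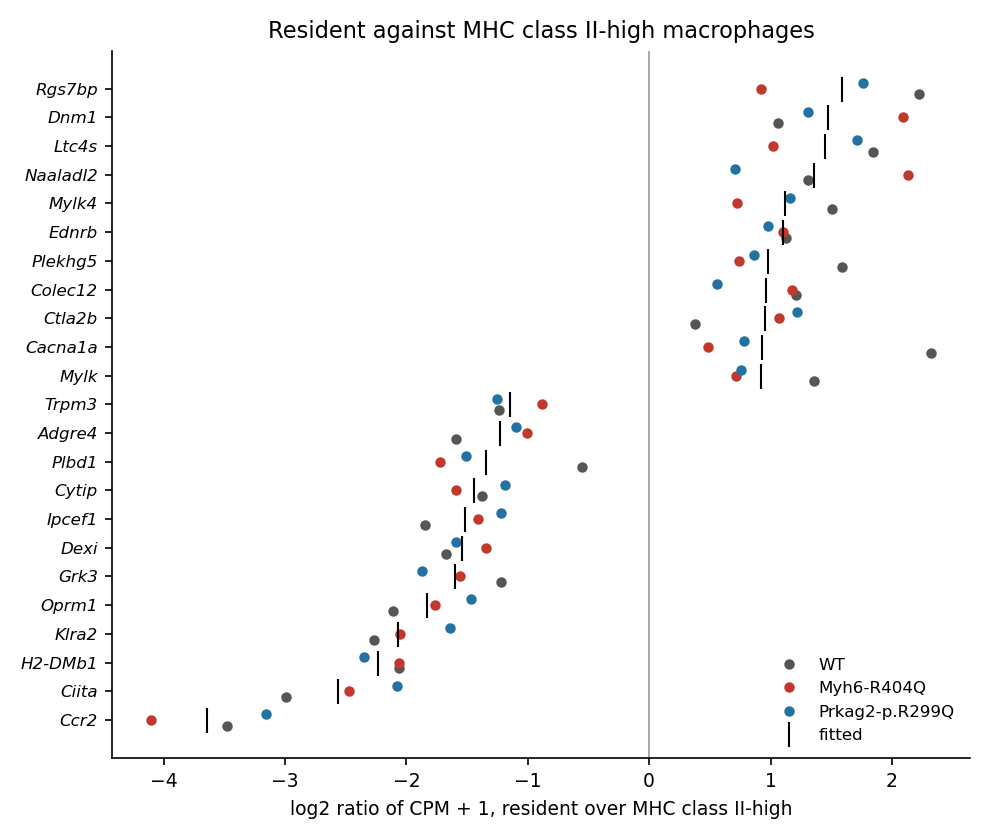
Log2 ratio of CPM + 1 in resident over MHC class II-high macrophages for the genes named by size, with 1 point for each library and a bar for the edgeR estimate. Genes were named only if all 3 libraries had the same direction, so that all points lie on 1 side of 0 follows from the choice. Points run from -4.10 for Ccr2 in Myh6-R404Q to 2.32 for Cacna1a in WT.

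Members of each library were also split by whether Lyve1 was detected. The members with it had a median depth of 1808, 2130 and 2640 UMIs against 1592, 1921 and 2193 UMIs in the others. Of 4270 genes measured, 4 were higher by 1.5-fold or more with Lyve1 in all 3 libraries (0.0937%) and 6 were lower (0.141%). Reln, with log2 ratios of 2.64, 3.07 and 1.71, and Mmrn1, with 1.92, 2.72 and 1.51, are genes of lymphatic endothelium, as Lyve1 also is. Both are leading genes of sub-cluster 8, where 64.8% of cells were called doublets. Lyve1 was highest in that sub-cluster, at 436.2 CPM. The split was not repeated without the called members. Fn1 was lower, at -1.41, -2.20 and -2.04. Folr2 was higher by 0.51, 0.48 and 0.36, under the 1.5-fold limit. These are descriptions, since Lyve1 is one of the genes of the rule.

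Among the sub-clusters with few called doublets, 1 was led by Ccl6, Ccl9 and mt-Atp8, with Cd38 next. Sub-cluster 2 was led by Gm13274, Fam118a and Ifi202b, with Timd4 and Hpgd further down. Sub-cluster 3 was led by Slpi and Fn1, with Lgals3 further down. Sub-cluster 1 had the lowest median depth, 1298 UMIs against 2214 and 2089, and 604 of its 889 cells were from WT. It also held 140 Myh6-R404Q and 145 Prkag2-p.R299Q members, at median depths of 1292 and 1329 UMIs. With 1 library per genotype, whether its size goes with the library or the genotype was not tested. Ccr2 stood at 74.6 CPM in sub-cluster 3, against 10.6 and 1.24 CPM in 1 and 2. Sub-cluster 9 (33 cells) was led by Top2a, Mki67 and Diaph3, genes of dividing cells.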

How the data were processed

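Each deposited matrix holds whole UMI counts of 32285 genes, made by the authors with Cell Ranger 7.0.1 on mm10, per the file headers and the submitters' processing notes. Whether intronic reads were counted is not given in the sources used here. For Myh6-R404Q the file pools all 3 libraries: its 7951 barcodes of suffix 1 and 18033 of suffix 2 equal the other matrices with 0 differing entries, and by elimination its 12662 of suffix 3 were used as Myh6-R404Q. Members, gene lists and tests were chosen with earlier results of these data known.

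UMIs were summed over members and given as CPM, with log2 ratios at a pseudocount of 1 CPM. Genes counted as measured had 50 CPM or more in either library, so some entered a count only through the library where they were higher. Ratios have exact conditional binomial intervals, share ratios log-normal ones. Named genes had 50 CPM or more, a 2-fold ratio, an interval beyond 1.5-fold and a level at least 0.5 times that of other barcodes, up to 10 each way. From each list the 4 highest members and any past 2-fold could be named. Up to 12 genes each way could be named from the class comparison. These had to pass the threshold with the same direction in all 3 libraries, and average 50 CPM or more on the higher side. Predicted, ribosomal, mitochondrial, haemoglobin, immunoglobulin, sex-linked marker and gate genes were left out. The gate genes, Timd4, Folr2, Ccr2, Igf1, Cx3cr1, Csf1r, C1qa, Prkag2 and Myh6 could be named in any case. Other genes named beside a count, as detected or at 0 UMIs, by Lyve1 or by sub-cluster were chosen after their values were seen. A gene that the rule selects in the class comparison is not reported here. Classes were tested with edgeR 4.0.16 (quasi-likelihood, TMM, Benjamini-Hochberg); DESeq2 1.42.0 was an alternative. SE is the log2 difference over the root of the F statistic. Sub-clusters used scanpy 1.11.5 (1500 genes, 20 components, 20 neighbours) and leidenalg 0.10.2 at resolution 0.6. Scrublet was run per library at 0.8% expected doublets per 1000 barcodes. The ratio and edgeR steps were tested on simulated counts.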

Additional observations from a re-analysis of the deposited data

How the results depend on the processing

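With 1 library per genotype, no alternative measures the variation between animals. The share ratio to WT in Myh6-R404Q was 0.982 with its matrix as deposited, which holds the other libraries; in Prkag2-p.R299Q it was 1.65 with 4 or more gate genes and 1.09 with 2 or more. Thinning to 1000 UMIs gave 88 higher and 117 lower genes past 2-fold in Myh6-R404Q and 41 and 152 in Prkag2-p.R299Q; a minimum of 20 CPM gave 117 and 122, and 42 and 180. Both settings let genes with fewer UMIs be counted. Without Scrublet-called droplets 119 were lower in Myh6-R404Q, and 17 higher and 120 lower in Prkag2-p.R299Q. In Prkag2-p.R299Q, 19 were higher with 2 or more gate genes and 7 with a pseudocount of 5 CPM. Fn1 in Prkag2-p.R299Q turned to 0.540 when thinned. The cytokine list median of -0.36 in Myh6-R404Q turned to 0.44 with 4 or more gate genes, 0.70 when thinned, 0.30 without Scrublet-called droplets and 0.41 with mitochondrial, haemoglobin and cardiomyocyte-list genes out of the total. In Prkag2-p.R299Q its -0.60 turned to 0.22 without Scrublet-called droplets and 0.17 at 20 CPM. The cause was not tested.

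Against MHC class II-high macrophages, DESeq2 gave 8 higher and 29 lower genes, no filter gave 129 higher, 3 or more MHC class II UMIs gave 63 lower, and thinning gave 14 and 6, with 6339 genes tested. Without the replicate block, which pairs the 2 classes of a library, edgeR gave 0 higher and 20 lower (611 genes at an unadjusted p under 0.05). Leaving out each library in turn gave 44 to 82 higher and 70 to 105 lower; the lowest lower count, 70, came without WT. Trpm3 turned to 6.70 when thinned.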

Other observations

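Of 13 interferon response genes measured, 0 were past 1.5-fold in either direction in Myh6-R404Q or Prkag2-p.R299Q, with median log2 ratios of -0.03 and 0.07; among all genes 10.6% and 11% were past 1.5-fold, so these counts are near that share. Of 8 MHC class I presentation genes 0 were past 1.5-fold in either library. Other immune lists differed more: of 10 toll-like and other pattern receptors measured in Myh6-R404Q, 3 were higher (Clec4a1, Clec4a2 and Clec4a3), against 5.71% of all genes. Clec4d was lower, against 4.91% of all genes, and reached 50 CPM in WT but not in Myh6-R404Q. The median of this list was 0.45. Of 15 complement and Fc receptor genes in Prkag2-p.R299Q, 5 were higher (C1qa, C1qb, C1qc, C3ar1 and C5ar1), against 3.71% of all genes. C4b was lower, against 7.31% of all genes. The list median was 0.24, or 0.00074 when barcodes were thinned to 1000 UMIs. Apoe, which carries lipid, stood at 184 CPM in WT, 351.1 CPM in Myh6-R404Q and 280.4 CPM in Prkag2-p.R299Q, ratios of 1.91 (1.68 to 2.17) and 1.52 (1.34 to 1.73), against 1.83 and 1.20 in all other barcodes. Lpl, lipoprotein lipase, stood at 602.6, 420.3 and 258 CPM, a ratio of 0.428 in Prkag2-p.R299Q (0.386 to 0.474). The cardiomyocyte list fell in the same order over these members, as given above, and the part of muscle RNA in Lpl was not tested. Entpd1, which breaks down extracellular ATP, stood at 439.8, 501.3 and 662.2 CPM, a ratio of 1.51 in Prkag2-p.R299Q (1.39 to 1.63), whereas in all other barcodes it was 0.722.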
